A study of Drosophila melanogaster with 4 samples.

Results

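The bithorax complex of Drosophila melanogaster holds the Hox genes Ubx, abd-A and Abd-B on chromosome arm 3R. H3K9ac, acetylated lysine 9 of histone H3, was read over it from 3 lists of enriched regions, termed clusters. The members are the clusters that overlap 3R from 12480000 to 12810000 (FlyBase release 5, 1-based), a 330 kb window set around the 3 genes by position. The window was chosen with earlier results of these data known. Of 8495 clusters in the list of ChIP replicate 1, 3 were members, as were 2 of the 6772 of ChIP replicate 2 and 10 of the 12322 of the list made for the replicate set, called the series-wide list. The chromatin came from whole wild-type embryos of the strain Oregon-R-modENCODE, 14 to 16 h old, raised in population cages. The series has 2 H3K9ac immunoprecipitations and 2 input samples without antibody, 4 samples in all, and each immunoprecipitation had its own input. Only the immunoprecipitations have cluster lists here, and these have no second condition to be compared with.

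Hox genes give the segments along the body axis their identity. Ubx acts in the posterior thorax and the anterior abdomen, abd-A in the middle of the abdomen and Abd-B at its posterior end, and the genes lie along the chromosome in this same order. In segments where a gene of the complex is off, Polycomb group proteins keep it silent; Trithorax group proteins sustain it where it is on. Large regulatory regions between and within the genes, such as bxd and the iab regions, set the segments in which each one is used. H3K9ac is a mark found above all at active promoters and the first part of transcribed genes. In chromatin from whole embryos, fewer cells with the mark and less of the mark per cell cannot be told apart.

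The spans used were 12482345 to 12560148 for Ubx (77.8 kb), 12632936 to 12655771 for abd-A (22.8 kb) and 12752934 to 12797958 for Abd-B (45.0 kb). All 3 genes are transcribed towards lower coordinates, so the upper end of each span is its 5′ end. In the Release 6 gene table the 3 genes have the same lengths and the same spacing. That table, used for names and order alone, puts the bxd noncoding RNA, CG31275 and Glut3 between Ubx and abd-A. Between abd-A and Abd-B it puts the protein-coding gene MSAmiP, the noncoding RNAs iab8 and iab4 and the microRNAs mir-iab-4 and mir-iab-8. The next protein-coding genes are modSP on the Ubx side and VhaM9.7-d on the Abd-B side.

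H3K9ac clusters were rare over the complex in both replicates, and those that both replicates held lay at the 5′ ends of Ubx and abd-A. Replicate 1 covered 7450 bp of the window, or 2.26% of it, and replicate 2 covered 4281 bp, or 1.30%. On the rest of 3R, 22.0% of bases were in clusters in replicate 1 and 15.7% in replicate 2. The mean share was thus 1.78% ± 0.679 in the complex and 18.8% ± 4.47 on the rest of the arm (mean ± SD, n = 2 replicates), a difference larger than the spread of either value. As a ratio within each list, the complex had 0.103 of the coverage of the rest of 3R in replicate 1 and 0.0828 in replicate 2. The series-wide list, with its many more clusters, covered 5.13% of the complex against 30.0% of the rest, a ratio of 0.171. With 2 replicates of 1 condition no exact permutation test is possible, and the labels do not say whether they came from separate collections, so the SD may be technical.

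**Figure D1:**
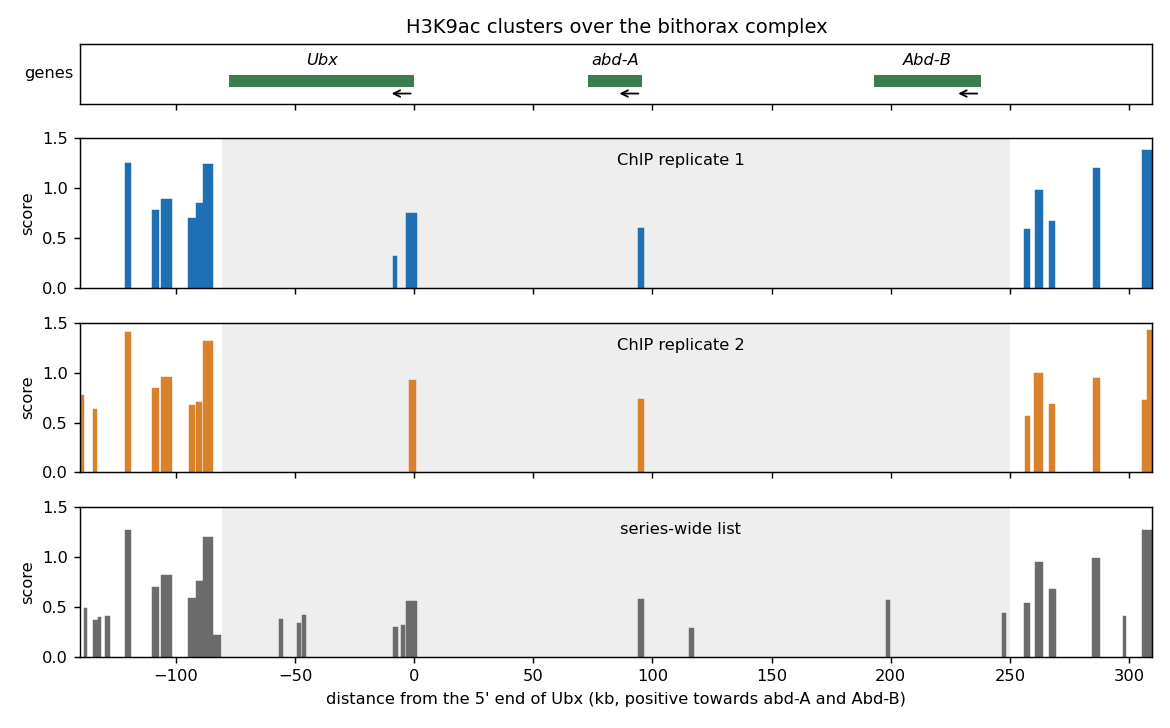
Map of the clusters over the bithorax complex and 60 kb on either side: the horizontal axis gives the distance from the 5′ end of Ubx in kb, the green bars in the top row are the gene spans with arrows in the direction of transcription, and each coloured bar below is a cluster with its width to scale and its deposited score as height. Inside the grey 330 kb window the replicates hold 3 and 2 clusters, and the series-wide list holds 10.

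In number, too, clusters were sparse. The 3 clusters of replicate 1 came to 0.909 per 100 kb, while the rest of 3R had 7.44 per 100 kb, at which rate 24.5 would have fallen in the window. The 2 of replicate 2 came to 0.606 per 100 kb against 5.98, a rate that gives 19.7 clusters. The ratio of these densities was 0.122 in replicate 1 (exact 95% interval 0.0252 to 0.358) and 0.101 in replicate 2 (0.0123 to 0.366). The series-wide list had 3.03 clusters per 100 kb against 10.7, a ratio of 0.283 (0.136 to 0.521). Every one of these intervals lies under 1, as a description and not a test, since the window was chosen with earlier results known. The series-wide list was made for the same replicates, so its interval is not separate from theirs. All of these intervals cover the counting of clusters alone and are too narrow where neighbouring clusters depend on each other.

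Ubx, which sets the identity of the posterior thorax and the anterior abdomen, carried a cluster at its 5′ end in both replicates. In replicate 1 it ran from 12556688 to 12560770, a width of 4083 bp, of which 3461 bp lay in the gene and 622 bp beyond its 5′ end. In replicate 2 it ran from 12558086 to 12560278, a width of 2193 bp, with 2063 bp in the gene and 130 bp beyond. The replicate 2 cluster lay wholly within that of replicate 1. The replicates thus shared the 5′ end and the first 2.06 kb of the gene, and differed by 1398 bp in how far the cluster reached into it.

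The deposited score of the Ubx cluster was 0.752 in replicate 1 and 0.929 in replicate 2. Each was above the median score of its list, 0.672 and 0.814. As ranks, they stood at the 59.4th and 63.5th percentile of their lists, and at place 823 of the 2054 clusters of 3R in replicate 1 and 570 of 1652 in replicate 2. The Ubx cluster was therefore the strongest of the complex in both replicates, and of middling score for the arm.

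Replicate 1 held a further Ubx cluster, at 12551314 to 12552630, between 7.52 and 8.83 kb into the gene from its 5′ end. At 1317 bp it was close to the narrowest of its list, which was 1301 bp. Its score of 0.318 put it at the 1.86th percentile, and replicate 2 had no cluster there. Altogether 6.14% of the Ubx span was covered in replicate 1 and 2.65% in replicate 2, or 0.279 and 0.169 of the coverage of the rest of 3R.

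abd-A, the gene of the middle abdominal segments, had a single cluster in each list, again at its 5′ end. It ran from 12653926 to 12655975 in replicate 1 and from 12654085 to 12656172 in replicate 2, so that starts differed by 159 bp and ends by 197 bp. The cluster reached 1846 bp and 1687 bp into the gene in replicates 1 and 2, and 204 bp and 401 bp beyond its 5′ end. Its width of 2050 bp and 2088 bp was near the median of the rest of 3R, which was 2311 bp and 2206 bp. Unlike the Ubx cluster, it kept nearly the same extent in the replicates, with 92.2% of the replicate 1 cluster inside that of replicate 2.

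The abd-A cluster scored 0.600 in replicate 1 and 0.738 in replicate 2, each under the median of its list. Its percentiles were 37.9 and 38.1, lower than those of the Ubx cluster in both replicates. Since abd-A is the shortest of the 3 genes, this 1 cluster covered 8.08% of its span in replicate 1 and 7.39% in replicate 2. Per length, abd-A was thus the most covered of the 3 genes in both replicates, at 0.367 and 0.471 of the rest of 3R. The series-wide list reverses this order, with 8.00% of abd-A and 13.5% of Ubx covered.

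Abd-B, the gene of the posterior abdomen, held no cluster in either replicate over its 45.0 kb. From its 5′ end, the nearest cluster lay 18.3 kb away in replicate 1 and 18.4 kb away in replicate 2, outside the gene on the far side from abd-A. That same cluster was also the nearest to the 3′ end of Abd-B, at 63.3 and 63.4 kb, closer than the abd-A cluster on the other side. Abd-B is transcribed from several promoters spread along the span. These were not placed one by one, and the 5′ end used here is the upper end of the span alone. The series-wide list alone placed a cluster in Abd-B, at 12758308 to 12759308, between 38.7 and 39.7 kb from the 5′ end. This cluster had the smallest width in that list, 1001 bp, and a score of 0.571 at its 67.6th percentile. No cluster in a list does not show that the mark was absent: depth is unknown, and the sources used here give no calling threshold.

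**Figure D2:**
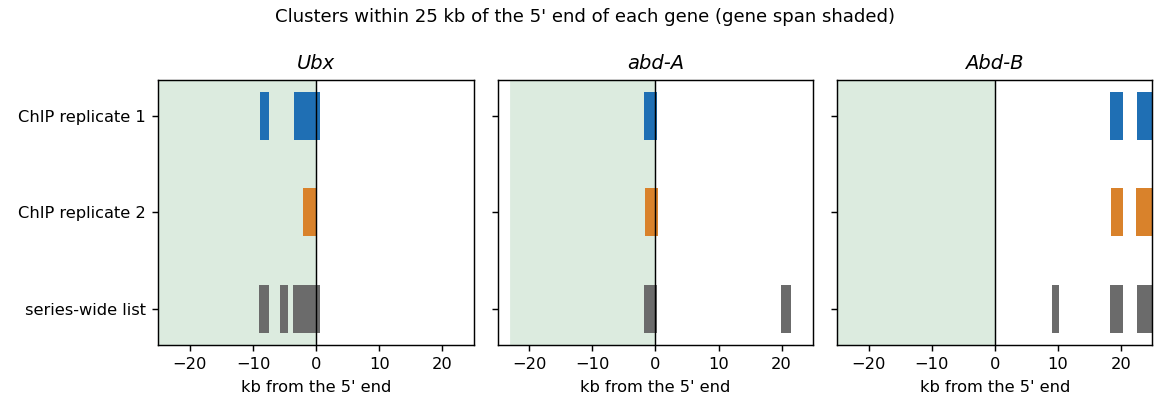
Clusters within 25 kb of the 5′ end of each gene, with the distance from that end in kb on the horizontal axis, the gene span shaded to the left of the line at 0, and 1 row of bars for each list. Clusters cross the 5′ end of Ubx and of abd-A in all 3 lists, while at Abd-B the nearest replicate clusters start 18.3 and 18.4 kb beyond it.

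The regions between the genes, where much of the regulatory DNA of the complex lies, held no cluster of a replicate other than the edges that reached over the 5′ ends of Ubx and abd-A. Between Ubx and abd-A, a span of 72.8 kb, those edges covered 622 bp, or 0.855%, in replicate 1 and 130 bp, or 0.179%, in replicate 2. Between abd-A and Abd-B, a span of 97.2 kb, they covered 204 bp, or 0.210%, and 401 bp, or 0.413%. The 12042 bp of the window beyond Abd-B and the 2345 bp below Ubx had 0 covered bases in both replicates. The 2 spans between genes thus had less coverage per length than Ubx or abd-A in each replicate, and more than Abd-B, which had 0. In the series-wide list Abd-B had 2.22%, more than the 1.97% between abd-A and Abd-B and the 0.849% between Ubx and abd-A.

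**Figure D3:**
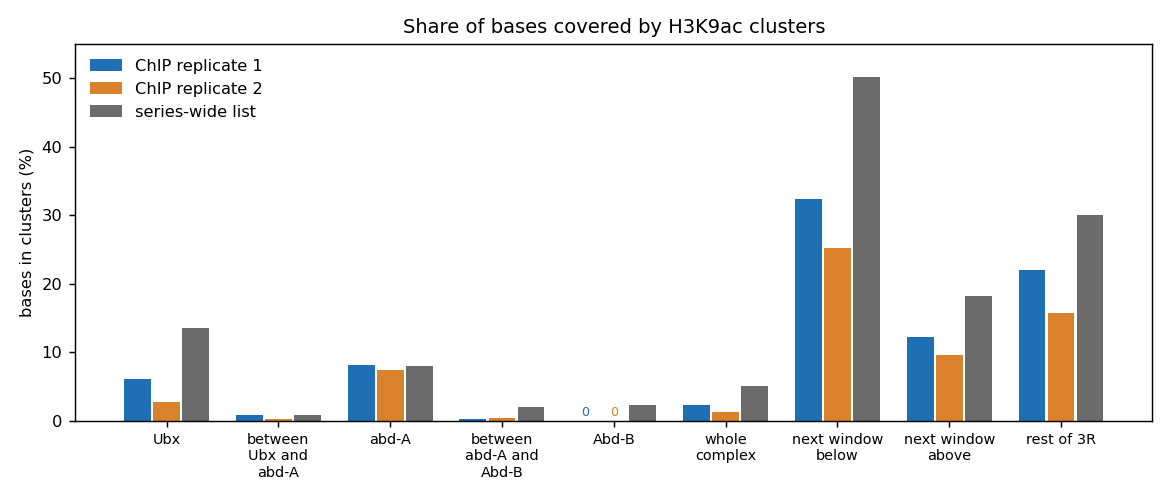
Share of bases in clusters, in percent, for each gene, the spans between the genes, the whole window, the windows of the same length on either side and the rest of 3R, with 1 bar for each list. The replicate bars stand at 2.65 to 8.08% for Ubx and abd-A and at 0 for Abd-B, against 22.0 and 15.7% for the rest of 3R.

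Of the 3 replicate 1 clusters in the complex, replicate 2 overlapped 2, or 66.7% (exact 95% interval 9.43 to 99.2%), and on the rest of 3R it overlapped 67.2%. Of the 2 replicate 2 clusters, replicate 1 overlapped both, or 100% (15.8 to 100%), against 90.7% on the rest of 3R. These shares are close to those of the arm, and with so few clusters the intervals are wide. In score, 1 of 3 clusters in replicate 1 and 1 of 2 in replicate 2 stood at or above the median of their list, against 48% and 47.7% on the rest of 3R. For the complex clusters the median percentile came to 37.9 in replicate 1 and 50.8 in replicate 2, where the rest of the arm had 47.8 and 47.1.

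The series-wide list held 10 clusters in the complex, and 7 of these overlapped a cluster of neither replicate. That share of 70.0% (exact 95% interval 34.8 to 93.3%) compares with 31.8% on the rest of 3R. Overlap with both replicates was found for 2 of the 10, or 20.0% (2.52 to 55.6%), the clusters at the 5′ ends of Ubx and abd-A, against 43.9% on the rest of the arm. At or above the median score of the list were 3 of the 10, against 45.7%: the Ubx and abd-A clusters, with 0.562 and 0.575, and the narrow Abd-B cluster. The scores of the Ubx and abd-A clusters were close here, at the 66.7th and 68.0th percentile, whereas Ubx ranked higher in each replicate.

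Most of the series-wide clusters without a replicate partner fell in Ubx, but so did 6 of all 10 series-wide clusters of the complex. There were 3 deep in the gene, at 12503388 to 12504640, 12510822 to 12512358 and 12513254 to 12514442, between 45.7 and 56.8 kb from its 5′ end. A further one lay at 12554444 to 12555754, 4.39 to 5.70 kb from the 5′ end, beside the cluster that replicate 1 held as well. Outside Ubx were the cluster in Abd-B, 1 between abd-A and Abd-B at 12675624 to 12677220 and 1 beyond Abd-B at 12807046 to 12808128. The scores of these 7 ranged from 0.287 to 0.571. With the 2 clusters at the 5′ ends left aside, every series-wide cluster of the complex was between 1001 and 1605 bp wide, under the 2085 bp median of the rest of 3R. Counted by the series-wide clusters that a replicate also held, the complex had 0.0952 of the coverage of the rest of 3R. Since these clusters were picked by their overlap with the replicates, a value near the 0.0927 ± 0.0140 of the replicates follows in part from that choice. It is no separate support.

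**Figure D4:**
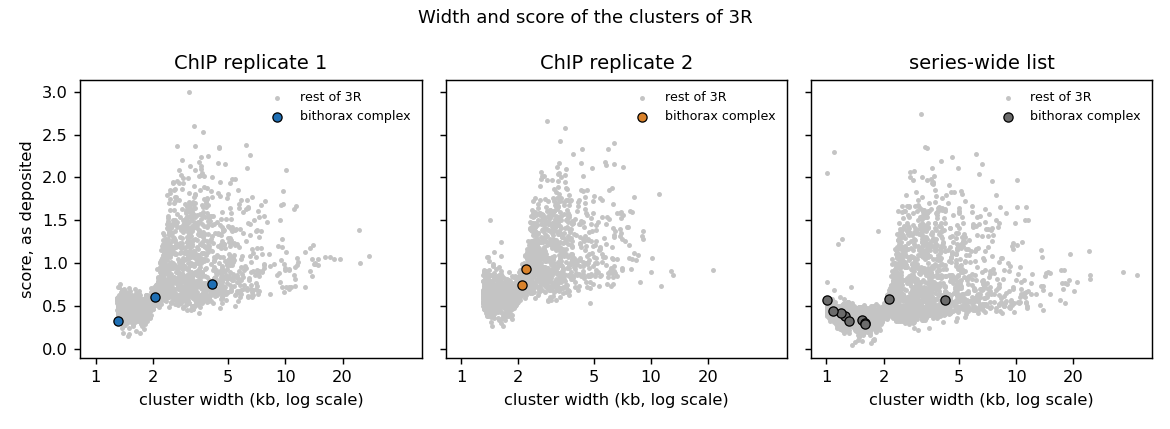
Width in kb on a log axis and deposited score of every cluster of 3R, with 1 panel for each list, grey points for the rest of the arm and outlined coloured points for the bithorax complex. The clusters at the 5′ ends of Ubx and abd-A are 2050 to 4209 bp wide, and the other clusters of the complex are at most 1605 bp wide.

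Between its few clusters the complex held some of the longest stretches of 3R without H3K9ac clusters. The longest in each replicate began at the abd-A cluster, took in the whole of Abd-B and ended past the window. It spanned 12655976 to 12816250, or 160.3 kb, in replicate 1, where it was the 8th longest of 2054 stretches, and 160.1 kb in replicate 2, the 12th of 1653. The stretch between the Ubx and abd-A clusters measured 93.2 kb in replicate 1 and 93.8 kb in replicate 2, at places 31 and 45. The stretch over most of Ubx, from the lowest cluster in the gene to the first one below it, measured 76.1 kb and 82.9 kb, at places 44 and 49. The median stretch on 3R was 3917 bp in replicate 1 and 5026 bp in replicate 2. In the series-wide list the stretch between Ubx and abd-A was about as long as in the replicates, 93.2 kb, and stood at place 7 of 2963. There, clusters that the replicates lacked divided the longer stretch beyond abd-A into pieces of at most 81.1 kb.

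The abd-A cluster stood alone to a degree that few clusters of the arm reached. Measured by the smaller of the gaps to its neighbours, 93.2 kb, it ranked 1 of 2054 clusters of 3R in replicate 1, and with 93.8 kb it ranked 2 of 1652 in replicate 2. The Ubx cluster of replicate 2 ranked 4, with 82.9 kb. The Ubx cluster of replicate 1 ranked 539, because the weak cluster in the gene lay 4.06 kb from it. The median smaller gap on 3R was 1.64 kb and 2.31 kb. In the series-wide list the abd-A cluster ranked 45 of 2964, with 19.5 kb to the cluster that neither replicate held, and the Abd-B cluster ranked 3, with 47.7 kb.

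The edges of the sparse stretch lay outside the genes in both replicates, nearer to Ubx than to Abd-B. Below Ubx, the nearest cluster was at 12471604 to 12475246 in replicate 1 and 12471562 to 12475229 in replicate 2, 7.10 and 7.12 kb from the 3′ end of Ubx. It scored 1.24 and 1.32, at the 84.7th and 85.0th percentile, above each cluster of the complex. Beyond Abd-B, the nearest was at 12816251 to 12818302 and 12816319 to 12818298, 18.3 and 18.4 kb from the 5′ end of Abd-B. Its scores were 0.591 and 0.564, at the 36.1st and 10.0th percentile. The series-wide list added a cluster just below the window, at 12475582 to 12478630, with a score of 0.214 at the 1.30th percentile.

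The window of the same length below the complex was rich in H3K9ac, with 47 clusters over 32.3% of its bases in replicate 1 and 36 over 25.2% in replicate 2. The window above had 16 clusters over 12.2% and 14 over 9.64%, less than the rest of 3R. It took in most of a stretch of 191.5 kb without a cluster in replicate 1, at 12979009 to 13170505, longer than any in the complex. Against the mean of these neighbouring windows, the complex had 0.0879 of the coverage.

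Among 82 windows of 330 kb laid end to end along the rest of 3R, none had a smaller covered share than the complex in any of the 3 lists. The lowest window of replicate 1 had 2.43%, that of replicate 2 had 1.47% and that of the series-wide list 6.54%, where the median windows had 20.8%, 14.7% and 28.8%. The window most like the complex by the mean of the replicates was 3R at 3300011 to 3630011, with 1.95% ± 0.678. It exceeded the complex by 0.174 percentage points in the mean. The order was the same within each list, 2.43% against 2.26% in replicate 1 and 1.47% against 1.30% in replicate 2. The next were 22110068 to 22440068, with 3.35% ± 0.911, and 23760073 to 24090073, with 6.65% ± 0.733. When windows were stepped so that 10 steps made up their length, 1 of 816 had less coverage than the complex in each replicate and 2 of 816 by the series-wide list. The window of the complex was drawn to fit its genes while the others begin at arbitrary bases, so the rank is a description and carries no p-value.

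**Figure D5:**
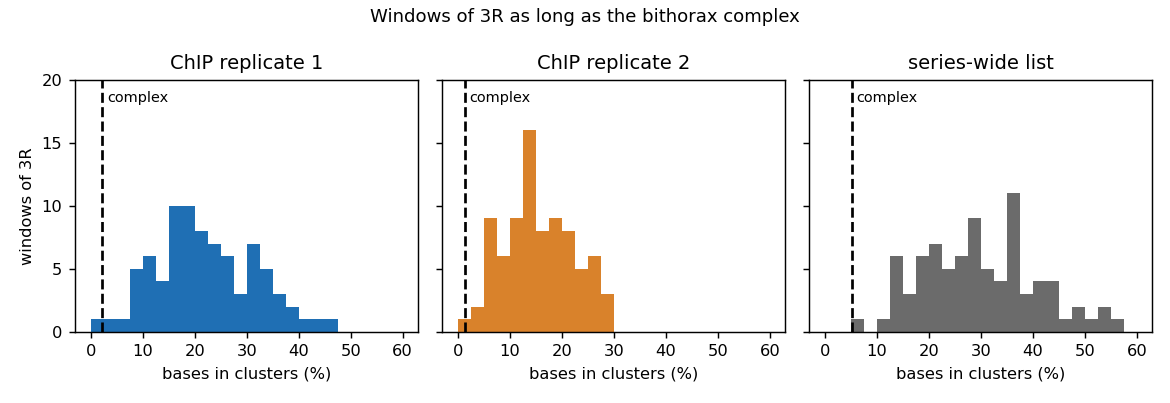
Histograms of the share of bases in clusters, in percent, over the 82 end-to-end windows of 3R that are as long as the complex, with 1 panel for each list. The dashed line marks the complex, at 2.26, 1.30 and 5.13% from the first panel to the last, and the lowest of the 82 windows, slightly higher, falls in the same bar as the line in each panel.

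Set against windows of its own length, each gene was less extreme than the complex as a whole. Of 353 windows as long as Ubx, 18.1% had less coverage in replicate 1 and 16.1% in replicate 2. Of 1206 windows as long as abd-A, 35.4% and 43.2% had less. A stretch as long as Abd-B without any cluster was not rare: 82 of 611 windows, or 13.4%, had none in replicate 1, and 117, or 19.1%, in replicate 2. The span between abd-A and Abd-B had more coverage than 3.18% and 6.71% of 283 windows, and the span between Ubx and abd-A more than 6.35% and 10.3% of 378. By the series-wide list, the share of windows with less coverage was 20.1% for Ubx, 22.1% for abd-A and 5.24% for Abd-B. For the span between abd-A and Abd-B it was 2.12%, and for the span between Ubx and abd-A 1.32%. In that list 5.07% of windows as long as Abd-B had no cluster.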

How the data were processed

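H3K9ac ChIP-seq clusters of embryos were taken from 3 deposited lists, one for each of 2 ChIP replicates and a series-wide one. Coordinates are those of FlyBase release 5, per the file headers. The authors deposited a score with each cluster; its scale is not given in the sources used here, nor are the aligner, the caller and its threshold, or how both replicates went into 1 list. Scores were therefore ranked within a list. Read depth is unknown, and no interval covers read sampling.

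The window and gene spans, the lists and the alternatives were chosen with earlier results of these data known, and the spans come from the rule that defines the members. Every member is reported. Overlapping clusters were merged before covered bases were counted and set against the length of the span; clusters that overlapped by at least 1 bp were shared. A cluster over a gene end counts in both spans. A percentile is the rank of a score within its list. Cluster shares have exact (Clopper-Pearson) 95% intervals, and density ratios the matching conditional interval. The 82 windows began at base 1 of 3R and left out those overlapping the complex. The comparisons with neighbouring windows, with windows of each gene's length and of gaps to neighbouring clusters were chosen after seeing the data. No hypothesis was tested. The interval code was tested on simulated data against a base-by-base count. Computation used matplotlib 3.10.9, scipy 1.17.1, pandas 2.3.3 and numpy 2.4.6 under Python 3.11.15.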

Additional observations from a re-analysis of the deposited data

How the results depend on the processing

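Low coverage of the complex held under each setting run, with ratios to the rest of 3R between 0.0781 and 0.171. When clusters scoring under the median of their list were left out, that ratio was 0.0781. The ratio of clusters per 100 kb was then 0.0955, and abd-A and the span between abd-A and Abd-B had 0. Within the window, the longest stretch without a cluster was 249 kb at this setting. The cluster nearest to the 5′ end lay 95247 bp away for abd-A and 22527 bp away for Abd-B. Of replicate 1 clusters, 100% (1 of 1) were shared. In both replicates the abd-A cluster and the first cluster beyond Abd-B score under the median, as does the weak Ubx cluster of replicate 1, and this setting leaves them out. The series-wide list has more clusters and gave 0.171 for the complex, 0.449 for Ubx, 0.266 for abd-A, 0.0658 for the span between abd-A and Abd-B, 0.0741 for Abd-B, 0.283 for clusters per 100 kb, a median percentile of 28.8, a longest stretch of 93.2 kb and 9088 bp from the 5′ end of Abd-B. Stepped windows put 0.123% of windows under the complex in place of 0. These are 18 settings. The other 22, 3 of them chosen after seeing the data, left the value unchanged or within its spread. Among them were 1 kb added to the genes, assignment by midpoint, a 50% overlap and the rest of the 5 large arms. The overlap shares have no spread and were unchanged under the 50% overlap. Without either replicate the ratio was 0.0828 to 0.103 for the complex, 0.169 to 0.279 for Ubx, 0.0114 to 0.0388 between Ubx and abd-A, 0.367 to 0.471 for abd-A, 0.00954 to 0.0263 between abd-A and Abd-B, 0 for Abd-B, and 0.101 to 0.122 for clusters per 100 kb. The percentile was 37.9 to 50.8, the longest stretch 153.8 to 154.0 kb within the window, the share of lower windows 0, and the distance 0 for Ubx and abd-A and 18293 to 18361 bp for Abd-B. No paired analysis was possible because there is no list for an input and no test between groups was made. What depth limits could not be measured.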
